A study of Mus musculus with 16 samples.

Results

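The clustered protocadherin locus was taken as chromosome 18 from 37090001 to 38005000 in the mouse build mm9, a span of 915 kb that holds the Pcdha, Pcdhb and Pcdhg gene clusters. Its members are all the 50 bp windows that the deposited files list inside this span, 499 of 1459926 windows in 9 libraries. Windows up to 200 bp apart were joined into regions within each library, and the locus was compared with 1 Mb on each side. All libraries are chromatin immunoprecipitation with sequencing (ChIP-seq) of neural progenitor cells, made from the V6.5 mouse embryonic stem cell line by way of embryoid bodies. In all 9 libraries the embryoid body stage took 4 days and fixation was in 1% formaldehyde. Med26, Cdk8 and RNA polymerase II (Pol II) were mapped 72 hours after an siRNA against Cbx3 or a control siRNA against luciferase, with 1 library for each antibody and arm. Cells without siRNA gave 1 further Pol II library and 2 Cbx3 libraries, called set 1 and set 2. With 1 library an arm no difference between arms could be checked against replicates, so none carries a p-value. The identity of the cells was not checked against marker genes, since the only gene table at hand is in GRCm38 coordinates, and Cbx3 itself was not mapped in the siRNA arms.

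Clustered protocadherins are adhesion proteins of the neuronal surface that give neurons distinct molecular identities. Most Pcdha and Pcdhg transcripts join a variable exon, each with its own promoter, to constant exons that the cluster shares, while Pcdhb genes have no shared constant exons. Each neuron uses only a few of these promoters, and the unused ones are held silent by DNA methylation and heterochromatin. Cbx3 (heterochromatin protein HP1 gamma) binds methylated histone H3 lysine 9, the mark of such chromatin, and is also found over transcribed genes. Med26 is a subunit of Mediator that helps to recruit elongation factors to Pol II, and Cdk8 is the kinase of Mediator's detachable module. In the order of the gene table, 14 Pcdha, 22 Pcdhb and 22 Pcdhg symbols follow each other, and 12 other symbols lie among them. Apart from 10 predicted genes these are Slc25a2, a mitochondrial carrier, and Taf7, a subunit of the general transcription factor TFIID, both between Pcdhb and Pcdhg. Coordinates were not carried between builds, so no region below is assigned to a gene, and no promoter sequence is shown.

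Pol II was sparse in the locus relative to its surroundings. The Mediator subunits also had fewer windows per Mb there, but too few for their intervals to leave out equal density. Pol II had 32 windows in the locus after Cbx3 siRNA, 63 after control siRNA and 9 in untreated cells, against 199, 240 and 79 in the 2 Mb of flanks. Per Mb, the locus held 0.351 times the flanking Pol II windows after Cbx3 siRNA (95% exact binomial interval 0.234 to 0.512), 0.574 times after control siRNA (0.428 to 0.760) and 0.249 times in untreated cells (0.110 to 0.497). Cdk8 had 3 windows in the locus in each arm, against 19 in the flanks in each arm, a ratio of 0.345 (0.0654 to 1.17). Med26 had none in the locus after Cbx3 siRNA and 7 after control siRNA, against 5 and 30 in the flanks. The ratio of control Med26 was 0.510 (0.189 to 1.19), so the intervals of Med26 and Cdk8 include equal density. All intervals cover counting error only, and since neighbouring windows share reads they are too narrow. Counted as merged regions, the Pol II ratio was 0.625 in both siRNA arms, with intervals of 0.276 to 1.29 and 0.299 to 1.21, and 0.0950 in untreated cells (0.00231 to 0.585).

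The flanks were themselves rich in Pol II. They held 2.54, 2.67 and 2.92 times the windows per Mb of all autosomes and the X chromosome after Cbx3 siRNA, after control siRNA and in untreated cells. The locus held 0.892, 1.53 and 0.728 times that density. Cut into stretches of the same 915 kb, those chromosomes gave 2816 stretches, of which 64.0%, 77.9% and 62.5% held no more Pol II windows than the locus in these 3 libraries. The median stretch held 18, 20 and 4 windows, fewer than the 32, 63 and 9 of the locus. The low Pol II density was therefore relative to the flanks and not to the typical stretch of this length. For Med26 and Cdk8 the flanks were also rich, at 2.24 to 2.49 times the density of all autosomes and the X chromosome. The locus held 1.27 times that density for control Med26 and 0 for Med26 after Cbx3 siRNA. For Cdk8 it held 0.773 times after Cbx3 siRNA and 0.849 times after control siRNA.

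**Figure D1:**
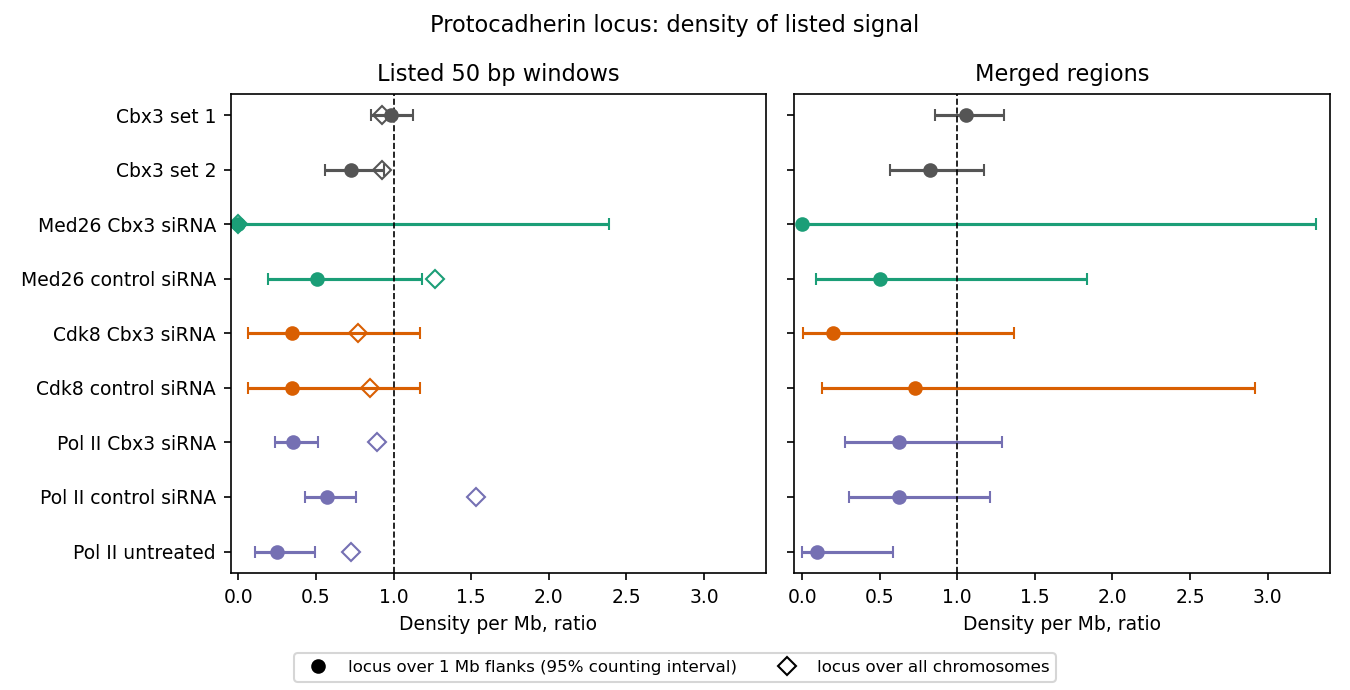
Density of listed 50 bp windows (left) and of merged regions (right) in the locus, as a ratio per Mb, for each of the 9 libraries. Filled circles set the locus against its 1 Mb flanks, with bars for the 95% exact binomial interval, and open diamonds set it against all autosomes and the X chromosome; the 3 Pol II window ratios lie at 0.351, 0.574 and 0.249, left of the dashed line of equal density.

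Cbx3 windows were spread over the whole locus. Set 1 listed 302 windows in 140 regions and set 2 listed 80 windows in 44 regions, or 330 and 87.4 windows per Mb. These were 0.926 and 0.924 times the density of all autosomes and the X chromosome. All 15 bins of 61 kb held set 1 windows, from 7 to 46 a bin, and 14 of them held set 2 windows, with at most 15. Against both flanks together the window ratio was 0.984 for set 1 (0.856 to 1.13) and 0.726 for set 2 (0.556 to 0.938).

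Those flank ratios hide a sharp edge. The 122 kb directly before the locus, from 36968001 to 37090000, held 273 windows of set 1 and 90 of set 2. That is 2238 and 738 windows per Mb, 6.27 and 7.80 times the density of all autosomes and the X chromosome. The locus had only 0.147 times the density of this adjoining stretch in set 1 (0.125 to 0.174) and 0.119 times in set 2 (0.0866 to 0.162). The last 61 kb before the border alone held 189 and 64 windows, against 38 and 15 in the first 61 kb of the locus. No window of Med26, Cdk8 or Pol II was listed in the adjoining stretch in any of the 7 libraries of these factors. Of the 35 set 2 regions in it, 13 overlapped set 1 (37.1%, interval 21.5 to 55.1%), against 12.2% of 82 regions elsewhere in the flanks (6.01 to 21.3%). Overlap by 1 bp rises with the density of a list, and set 1 held 2238 windows per Mb here against 212 elsewhere in the flanks. The part of density in the higher share was not tested. With the adjoining stretch left out of the flanks, the locus held 1.56 times the flanking windows in set 1 (1.34 to 1.81) and 1.09 times in set 2 (0.819 to 1.44). The stretch was picked after its values were seen, so these values are a description. In the order of the GRCm38 gene table the predicted pseudogene Gm6756 is the next symbol before Pcdha1.

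**Figure D2:**
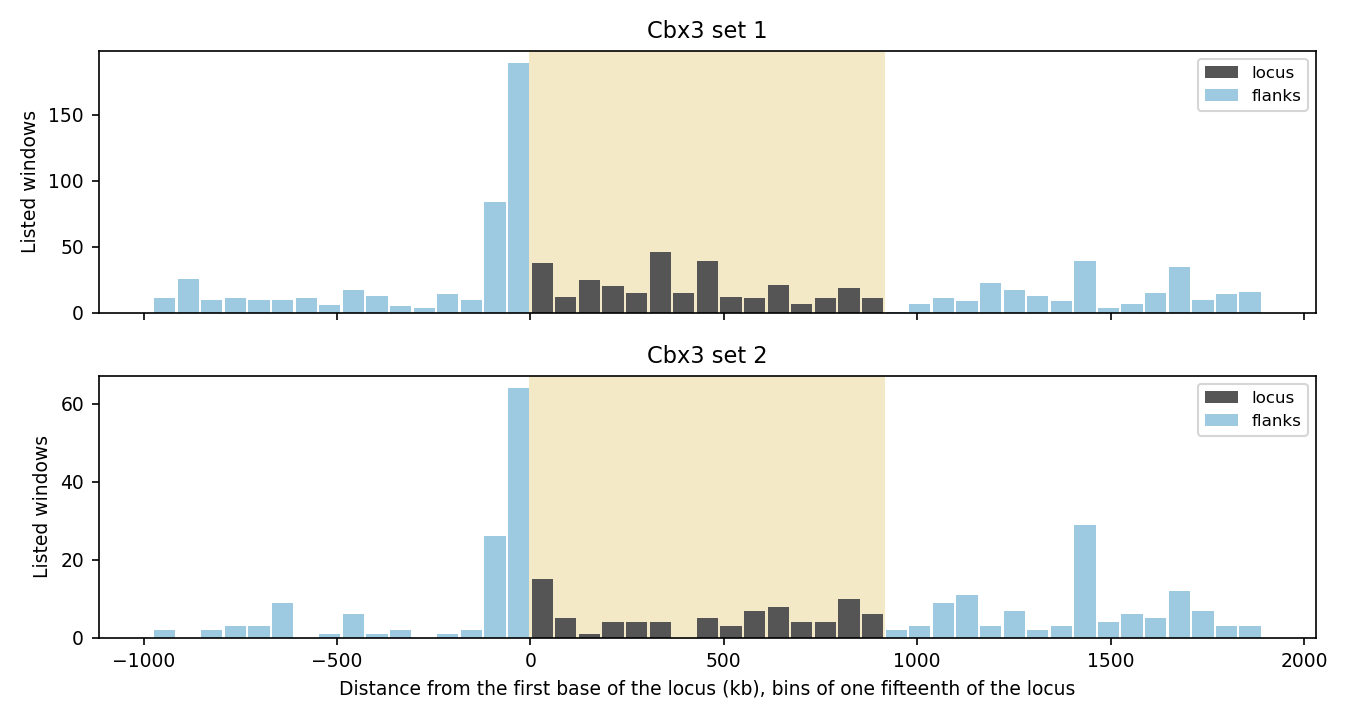
Listed Cbx3 windows per bin of 61 kb, in set 1 (top) and set 2 (bottom), by distance in kb from the first base of the locus; dark bars lie in the locus (shaded) and light bars in its flanks. In both sets the highest bar is the flank bin that ends at the border, with 189 and 64 windows.

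**Figure D3:**
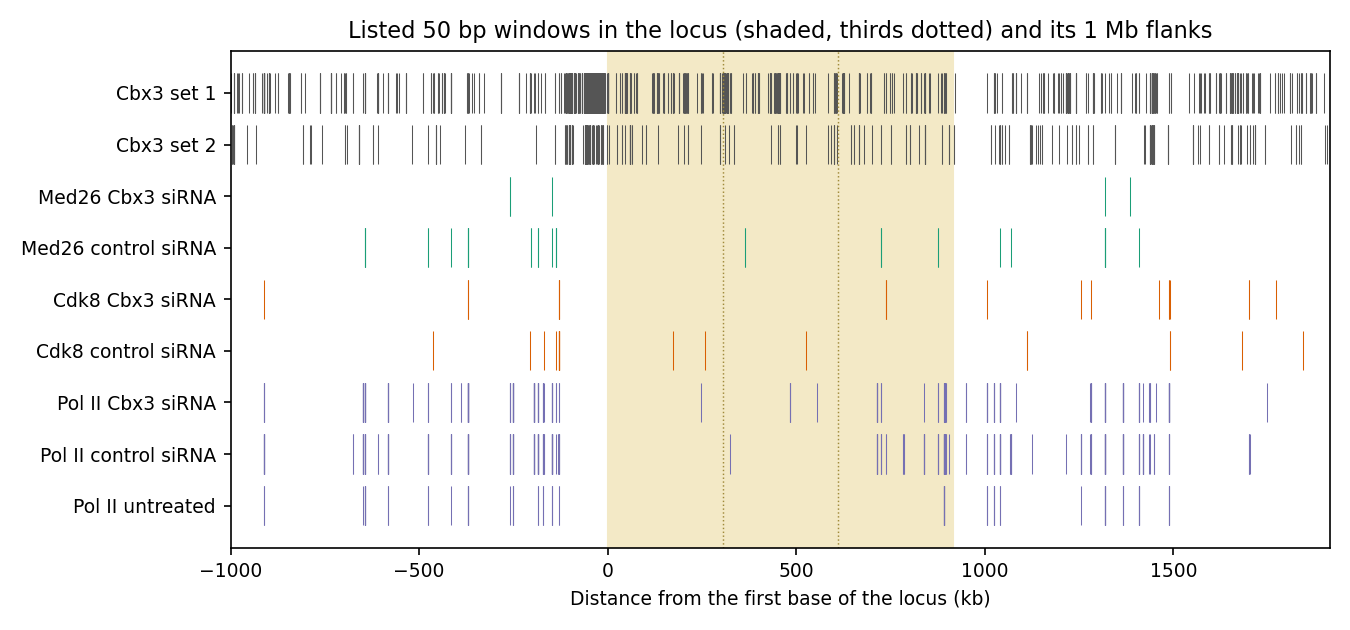
Every listed 50 bp window of the 9 libraries in the locus (shaded, with dotted lines between 3 equal parts) and in its 1 Mb flanks, by distance in kb from the first base of the locus; 1 tick is 1 window. Cbx3 ticks run through the whole locus, while Pol II ticks gather in its last 305 kb, where 62 of the 63 control windows lie.

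Within the locus, Pol II lay mostly in the last 305 kb, the last of 3 equal parts. It held 26 of the 32 windows after Cbx3 siRNA (81.3%, interval 63.6 to 92.8%), 62 of 63 after control siRNA (98.4%, 91.5 to 100%) and all 9 in untreated cells. The last of the 15 bins alone held 15 of the windows after Cbx3 siRNA and 38 after control siRNA. Among windows above the median of their library, the last 305 kb held 3 of 6 after Cbx3 siRNA (50%) and 17 of 17 after control siRNA (100%). In the first 610 kb the control library listed 1 window, from 37415101 to 37415150. Of the Cbx3 windows, 22.8% of set 1 (18.2 to 28.0%) and 40.0% of set 2 (29.2 to 51.6%) lay in the last 305 kb. Among those above the median of their library the shares were 44 of 127 in set 1 (34.6%) and 24 of 40 in set 2 (60%).

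Cbx3 signal had its highest regional medians at that end. Set 1 regions had a median peak, the signal of a region's highest window as deposited, of 39.3 in the last 305 kb, 31.1 in the middle part and 32.7 in the first part. Set 2 regions had 16.4, 11.0 and 13.1. The last part held 9 of the 10 set 1 regions of highest signal and 6 of the 10 of set 2. The signal of 1 read was inferred from the step between values, as 3.98 in set 1 and 2.18 in set 2. On that reading the highest set 1 region of the locus, from 37986201 to 37986300 with a signal of 65.6, stood for 16.5 reads. The highest of set 2, from 37932601 to 37932750 with 22.5, stood for 10.3 reads. Genome-wide, 98.8% of all set 1 regions and 93.7% of all set 2 regions had no higher peak than these. The flanks held higher peaks, of up to 113 in set 1 and 50.3 in set 2.

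Strong Cbx3 of set 1 and Pol II met at a few sites, mostly in the last 305 kb. Of the 140 set 1 regions, 5 overlapped Pol II of any library (3.57%, interval 1.17 to 8.14%), against 1.87% of all set 1 regions. These 5 had signals of 43.9 to 65.6 with a median of 62.0, against a median of 33.9 for the other regions of the locus, and 4 of them were among its 10 highest. The same held across the genome, where set 1 regions with Pol II had a median of 56.8 and those without 34.0. In set 2, 2 of 44 regions overlapped Pol II of any library (4.55%, 0.555 to 15.5%), against 1.80% of all its regions. Counted from the Pol II side, 2 of 10 regions after Cbx3 siRNA held Cbx3 of set 1, against 35.2% genome-wide, and 3 of 12 after control siRNA did, against 39.7%. Cbx3 of set 2 lay at 1 of 10 and 2 of 12, against 10.4% and 11.8%. No Pol II region of the locus held Cbx3 of both sets, against 5.10% after Cbx3 siRNA and 5.53% after control siRNA genome-wide. With so few regions, none of these shares could be told from the genome-wide one.

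The Cbx3 sets mostly listed different places. Of the 44 set 2 regions of the locus, 6 overlapped set 1 (13.6%, interval 5.17 to 27.4%), against 11.1% of all set 2 regions, and 6 of the 140 set 1 regions overlapped set 2 (4.29%, 1.59 to 9.09%), against 3.29% of all. Only 7 windows were listed in both. The first of the 6 shared regions ran from 37135451 to 37135800, where set 1 covered 350 bp and set 2 covered 50 bp. The next, from 37148451 to 37148800, was covered over 50 bp in set 1 and over 350 bp in set 2. From 37387951 to 37388300 set 1 listed 300 bp and set 2 listed 150 bp. From 37401701 to 37402150 they listed 300 and 50 bp, and from 37545801 to 37545950 both listed 100 bp. The last, from 37756401 to 37756750, had 50 bp in set 1 with a signal of 50.5 and 200 bp in set 2 with 19.6. All but this last one lay in the first 610 kb, and none overlapped Pol II. The longest set 1 region, 500 bp from 37715151 to 37715650, was listed in set 1 alone.

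Fewer Pol II windows were listed in the locus after Cbx3 siRNA than after control siRNA, while the number of merged regions was close. The locus had 32 windows after Cbx3 siRNA and 63 after control siRNA, a ratio of 0.508 (0.321 to 0.789). Above the median signal of the control library, 16.6, it had 2 windows after Cbx3 siRNA and 17 after control siRNA, a ratio of 0.118, against 0.708 on all chromosomes. All 17 lay in only 3 control regions, neighbouring windows share reads, and no interval was computed for this cut. The 2 lay outside those 3 regions, from 37574501 to 37574700 and from 37984601 to 37984900. For all listed windows, the flanks had 199 and 240, a ratio of 0.829 (0.684 to 1.00), and all chromosomes gave 0.871. Regions numbered 10 after Cbx3 siRNA and 12 after control siRNA. Of the 12 control regions 6 were listed again after the knockdown (50%, interval 21.1 to 78.9%), against 67.9% of all control regions, and 6 of the 10 regions of the Cbx3 siRNA library had a control counterpart, against 68.1%. The 3 control regions above the median peak of that library, 17.97, were all listed again after Cbx3 siRNA. None met a Cbx3 siRNA region above the same signal (0%). At these 3 regions the highest windows were 15.4, 13.2 and 16.3 after Cbx3 siRNA, against 18.8, 25.8 and 23.5 after control siRNA. The highest Cbx3 siRNA window of the locus, 17.86, lay below that cut and away from them, from 37574501 to 37574700. No genome-wide share was computed for this cut. Without the last bin the locus had 17 windows after Cbx3 siRNA and 25 after control siRNA, a ratio of 0.680, against 0.829 in the flanks. Where both arms listed a window, the signal did not set the locus apart: over 20 such windows the log2 ratio of Cbx3 siRNA to control had a median of -0.22 (interval -0.44 to 0.07), against -0.30 in the flanks and -0.29 in all. Signal was lower after the knockdown in 14 of the 20, against 74.2% of all shared windows.

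Joined over the 3 Pol II libraries, the locus had 14 stretches, of which 7 were listed in both siRNA arms, 4 in the control arm alone and 3 after Cbx3 siRNA alone. Listed length was shorter after the knockdown in 9, longer in 3 and equal in 2. In the stretch from 37986051 to 37986300, counted as equal and as listed in both arms, the arms shared no base. Control Pol II ended at 37986150 there, and Pol II after Cbx3 siRNA began at 37986201. This count was not made for the flanks or the genome. There too fewer Pol II windows were listed after Cbx3 siRNA, with ratios of 0.829 and 0.871. The largest difference was at 37984151 to 37985700, with 300 bp after Cbx3 siRNA and 950 bp after control siRNA. Its highest window nonetheless had a signal of 17.0 after Cbx3 siRNA and 13.1 after control siRNA, so the stretch was shorter and not lower at its top.

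The neighbouring stretch, from 37982051 to 37982600, was the only one also listed in untreated cells. Pol II covered 200 bp of it after Cbx3 siRNA, 550 bp after control siRNA and 450 bp in untreated cells, with highest windows of 16.3, 23.5 and 15.7. Values of the untreated library are on another step (0.0211 against 0.0220), so its level was not compared. Untreated Pol II had this 1 region in the locus, and control siRNA listed it too, as it listed 94.9% of all untreated regions. Conversely 1 of the 12 control regions was in the untreated list (8.33%, interval 0.211 to 38.5%), against 44.3% of all control regions and 22 of 42 in the flanks (52.4%, 36.4 to 68.0%). The lowest listed signal was 6.01 in the control library and 9.02 in the untreated one, each on its own step, and the part of this in the overlap was not tested.

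The highest Pol II window of the locus lay elsewhere. From 37927701 to 37928050 Pol II covered 50 bp after Cbx3 siRNA and 350 bp after control siRNA, with highest windows of 13.2 and 25.8, the highest of the locus. From 37803701 to 37804100 it covered 350 bp in each arm, with highest windows of 15.4 after Cbx3 siRNA and 18.8 after control siRNA. Genome-wide, 58.6% of Pol II regions after Cbx3 siRNA, 68.3% after control siRNA and 39.5% in untreated cells peaked no higher than the locus. Median region peaks in these libraries were 12.5, 12.0 and 15.7 in the locus, the last over 1 region. Genome-wide they were 15.4, 18.0 and 17.3. The longest and highest of the gains lay from 37574501 to 37574700 in the middle part, with 200 bp and a highest window of 17.9 after Cbx3 siRNA and none in the control or untreated list. At an inferred 1.10 per read that window stands for 16.2 reads, well above the 5.46 reads of the lowest listed window. No other library listed that place. For its library the peak was not exceptional, as 58.6% of all Pol II regions after Cbx3 siRNA peaked no higher. Of those regions, 68.1% were also listed in the control arm. The other gains were single windows of signal 7.41 from 37338051 to 37338100 and 7.15 from 37644501 to 37644550. The 4 stretches of the control arm alone were also weak. They were the window from 37415101 to 37415150 with a signal of 7.70, 100 bp from 37828601 to 37828700 with a highest window of 9.97, 200 bp from 37874501 to 37874700 with 7.30, and 50 bp from 37995851 to 37995900 with 7.19. The last of these lay within a Cbx3 region of set 2. Other control regions were not listed again but were joined into stretches of both arms. They were 550 bp from 37985001 to 37985700 with a highest window of 10.8, and 100 bp from 37986051 to 37986150 with 8.80. No control region of the locus had more than 550 listed bp.

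**Figure D4:**
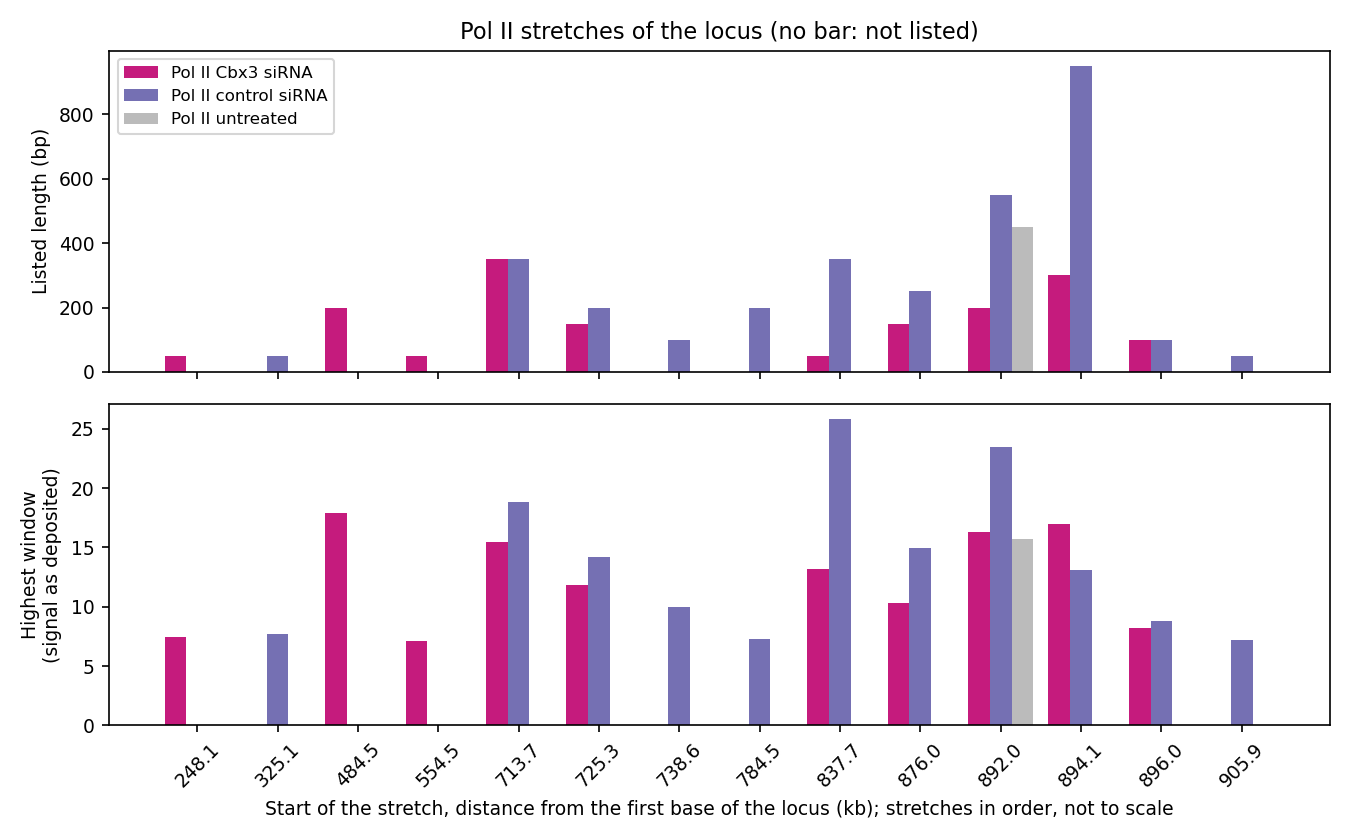
Pol II at the 14 stretches of the locus, as listed length in bp (top) and as the signal of the highest window (bottom), after Cbx3 siRNA, after control siRNA and in untreated cells; stretches stand in order of their distance in kb from the first base of the locus. Listed length was shorter after Cbx3 siRNA at 9 stretches, longer at 3 and equal at 2, a count not made outside the locus. The bar near 484.5 kb marks the longest and highest stretch listed after Cbx3 siRNA alone.

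Med26 was listed nowhere in the locus after Cbx3 siRNA and at 3 places after control siRNA. Across the genome its list was also far shorter after the knockdown, with 2721 windows in 1745 regions after Cbx3 siRNA and 15546 windows in 5990 regions after control siRNA, a window ratio of 0.175. None of these 3 regions was listed again, against 8.61% of all control Med26 regions, and 0 of 3 allows a share of up to 70.8% (upper bound of the exact 95% interval). They ran from 37453351 to 37453450, from 37815651 to 37815800 and from 37965901 to 37966000, with highest windows of 7.70, 10.4 and 8.06, or 8 to 10.8 reads on the inferred scale. The last overlapped control Pol II, so 1 of 3 did, against 74.9% of all control Med26 regions, and the second lay 150 bp from a Pol II region.

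Cdk8 rested on even fewer reads. After Cbx3 siRNA it had 1 region, 150 bp from 37828701 to 37828850 with a highest window of 8.07, and after control siRNA 3 single windows. These began at 37263951, 37347451 and 37616101, with signals of 6.35, 8.46 and 7.05, or 4.5 to 6 reads. None of the 3 was listed again after the knockdown, against 11.4% of all control Cdk8 regions. No Cdk8 window of the locus was above the median of its library.

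Few stretches of the locus were listed in several libraries. Joined over all 9 libraries, 154 stretches of the locus were listed in 1 library, 15 in 2, 5 in 3 and 3 in 4, with none in more. No such count was made for the flanks or the genome, so it does not set the locus apart. Genome-wide, 3.29% of set 1 Cbx3 regions overlapped set 2 and 11.1% of set 2 regions overlapped set 1. The first stretch of 4 libraries ran from 37815301 to 37815800 and held Pol II over 150 bp after Cbx3 siRNA and 200 bp after control siRNA, control Med26 over 150 bp and Cbx3 of set 2 over 100 bp. The second ran from 37965901 to 37966200 and held Pol II over 150 and 250 bp in these arms, control Med26 over 100 bp and Cbx3 of set 1 over 50 bp with a signal of 63.3. The third was the stretch of untreated Pol II, with Cbx3 of set 1 over 100 bp and a signal of 62.0. At the 2 of these stretches with Med26, Med26 was listed under control siRNA alone, and Pol II was listed in both arms over a shorter length after Cbx3 siRNA. The other control Med26 region, from 37453351 to 37453450, lay 38200 bp from control Pol II. Med26 windows were fewer genome-wide too (ratio 0.175), and Pol II was shorter at 9 of its 14 stretches. A link between Med26 and Pol II length was not tested.

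The 5 stretches of 3 libraries all held Cbx3 of set 1. From 37338001 to 37338350 Cbx3 of set 1 overlapped a single Pol II window of the Cbx3 siRNA arm, and Cbx3 of set 2 lay beside it. From 37828601 to 37828850 set 1 lay with control Pol II over 100 bp and with the only Cdk8 region of the Cbx3 siRNA arm. The remaining 3 were Pol II stretches of both siRNA arms already described or next to them, from 37927701 to 37928050, from 37984051 to 37985700 and from 37986051 to 37986300. Thus 7 of the 8 stretches of 3 or more libraries lay in the last 305 kb of the locus. All 8 held Pol II, which was listed mostly in that part, and the 2 siRNA arms counted as separate libraries. The count therefore largely restates where Pol II was listed.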

How the data were processed

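Each file deposited by the authors lists 50 bp windows of build mm9, each with a signal. The submitters' processing notes name Bowtie, with no version. Not given in the sources used here are the window test, its minimum, the scaling, the role of the 7 inputs (not used here) and the treatment of reads that align to several of the similar protocadherin exons. The depth of the libraries is unknown, and a window that is not listed can hold signal below the minimum. In each file the values fell on a grid of equal steps (tolerance 0.05 of a step), and 50 steps were taken as 1 read, which is inferred. The step was equal within each siRNA pair, so levels were compared within pairs only, although depth within a pair may still differ.

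Regions were assigned by their midpoint and overlapped when they shared 1 bp. Shares and ratios carry exact (Clopper-Pearson) 95% intervals, medians of log2 differences an interval of order statistics. Coordinates count from 1. Named were all regions of libraries with 15 or fewer, the highest and longest Cbx3 regions, stretches of 3 or more libraries and the Pol II differences. The locus, the lists and the tests were chosen with earlier results of these data known. Merging, overlap and ratio steps were tested on simulated data. Software was scipy 1.17.1, pandas 2.3.3 and numpy 2.4.6 under Python 3.11.15, and figures were drawn with matplotlib 3.10.9.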

Additional observations from a re-analysis of the deposited data

How the results depend on the processing

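Of 148 alternatives, 119 gave a value within the interval of the reported one, 28 fell outside it and 1 changed direction, meaning that the reported interval lay wholly on one side of 1 and the alternative on the other; their cause was not tested. A further 6 density ratios, all of Cbx3 and with reported intervals that include 1, also came out on the other side of 1. With flanks of 0.5 Mb the window ratio was 0.768 for Cbx3 set 1 and 0.393 for control Pol II. With windows above the library median the window ratio was 0.580 for Cbx3 set 1, 0.121 for Pol II after Cbx3 siRNA, 0.286 for control Pol II and 0 for untreated Pol II and both Cdk8 libraries. The region ratio was then 0.760 for Cbx3 set 1, 0.298 for control Pol II and 0 for untreated Pol II and both Cdk8 libraries, and the share of windows in the last 305 kb was 34.6% and 60% for Cbx3 sets 1 and 2, 100% for control Med26 and control Pol II, and 50% for Pol II after Cbx3 siRNA. Above the control median, the ratio of Pol II windows between the arms was 0.118, with all 17 control windows in 3 regions. Of the 3 strong control Pol II regions 0% were listed again as strong, though all were listed again at a lower signal. With both Cbx3 sets required, 0% of untreated Pol II regions held Cbx3; with set 2 or set 1 alone the values ran from 0 to 100%, over 1 region. The following were added after seeing the data. With the left or the right flank alone, the Cbx3 set 1 ratio was 0.750 or 1.43. Without the fullest bin, the Pol II window ratio was 0.200 after Cbx3 siRNA, 0.244 after control siRNA and 0 in untreated cells. Without the 122 kb left of the locus, the Cbx3 set 1 ratio was 1.56 for windows and 1.37 for regions, and the set 2 window ratio changed direction, to 1.09. No paired analysis was possible because an antibody had only 1 library in an siRNA arm. Cdk8, Med26 and both Cbx3 sets are limited by the few reads behind a window.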
